A study of Sus scrofa with 22 samples.

Results

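The microRNAs miR-221 and miR-222 were followed in 22 small RNA libraries from the subcutaneous fat of female pigs aged 6 months. All reads filed under miR-221 or miR-222, with or without an arm suffix, were summed per library, which gave 3 names of the 250 miRNA names in the count tables: miR-221-3p (16 different sequences), miR-221-5p (4 sequences) and miR-222 (19 sequences). The libraries came from Pietrain pigs with thick (4) or thin (3) fat, Large White pigs with thick (4) or thin (4) fat and Hampshire pigs with thick (5) or thin (2) fat. The labels class the fat as thick or thin without a measured thickness, name no treatment and do not say that each library is a different animal, so a p-value here covers the spread among libraries and no more. The counts were deposited in a separate table for each breed, so breed and any difference in handling between those tables cannot be told apart.

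miR-221 and miR-222 are made from neighbouring hairpins of a single primary transcript, and RefSeq's annotation of Sscrofa11.1 lists MIR221 and MIR222 side by side on chromosome X. Loaded into an Argonaute protein, both silence messenger RNAs that match their seed, the bases next to the 5′ end, and their best known targets are the cell cycle inhibitor CDKN1B (p27) and the receptor kinase KIT. They are abundant in endothelium and smooth muscle, and in cultured fat cells their level is known to fall as preadipocytes become adipocytes. The other arm of the miR-221 hairpin, miR-221-5p, has a different seed and is usually the less stable strand.

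The sequences below are the most abundant of each name and are shown because the pair share a seed; they were read from the deposited count tables, run 5′ to 3′, and have the seed (bases 2 to 8) in capitals.
miR-221-3p, most abundant: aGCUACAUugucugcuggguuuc
miR-221-3p, next: aGCUACAUugucugcuggguuu
miR-221-3p, after that: aGCUACAUugucugcuggguuucu
miR-222, most abundant: aGCUACAUcuggcuacugggucucu
miR-222, next: aGCUACAUcuggcuacugggucuc
miR-222, after that: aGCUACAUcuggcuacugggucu
miR-221-5p, most abundant: aCCUGGCAuacaauguagauu
All 35 sequences of miR-221-3p and miR-222 held the same seed, and no other name in the tables had a sequence with it. The most abundant sequences of the pair were identical over the first 8 bases, differed first at position 9, and matched at 11 of the first 23 positions. The identical run from the 5′ end therefore stops after the seed, with 3 more matching positions nearer the 3′ end, and miR-221-5p, from the opposite arm, has another seed altogether. Positions were compared without gaps, so a shared stretch shifted by a base was not counted in full.

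Library totals ran from 431542 to 3137757 reads. The smallest count above 0 for any sequence was 6. A sequence listed at 0 may therefore have had up to 5 reads, if only low counts were left out. Levels below are CPM (read counts scaled to a common library size) after TMM scaling, a correction for differences in composition between libraries. miR-148a-3p, at 20.1% ± 5.42 (SD, n = 22) of reads, and miR-143-3p, at 9.12% ± 3.46 (SD, n = 22), led the libraries, and both are abundant in fat. Large White thick and thin fat are described as labelled, but the authors' deposited table of fat comparisons, whose fold changes are thin minus thick, followed the labels less closely there. Over sequences, its fold changes correlated with thick minus thin at r = -0.985 in Pietrain and -0.887 in Hampshire, but at -0.501 in Large White, where exchanging thick replicate 1 and thin replicate 1 gave -0.805. The differences in level between Large White thick and thin fat are therefore also given with these libraries exchanged.

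miR-221-3p and miR-222 were present in every library at similar, moderate levels. miR-222 averaged 256.5 CPM ± 108 (SD, n = 22) and ranked 88th of the 250 names, and miR-221-3p averaged 244.6 CPM ± 66.9 (SD, n = 22) and ranked 89th. Over all libraries the tables held 10187 reads of miR-222, 9123 of miR-221-3p and 288 of miR-221-5p. miR-222 was the more variable of the pair: its highest library was 9.77 times its lowest, with a coefficient of variation of 42.2%, against 2.81 times and 27.3% for miR-221-3p. Without its lowest library, Hampshire thick replicate 5, the figures for miR-222 were 4.04 times and 38.0%. Among the 108 names with reads in every library, whose median coefficient of variation was 31.8%, miR-222 was the 30th most variable and miR-221-3p the 71st. Among the 49 of these in a band of mean level around the pair, the median was 36.5%, and miR-222 ranked 19th and miR-221-3p 38th. Counting error adds to this spread, since single libraries held 123 to 1183 reads of miR-221-3p and 44 to 1412 of miR-222.

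miR-221-3p stood at 454, 212, 248 and 248 CPM in the 4 Pietrain thick libraries and at 293, 269 and 232 CPM in the 3 thin ones. In Large White it was at 335, 206, 262 and 172 CPM in thick fat and at 233, 220, 194 and 212 CPM in thin fat. In Hampshire it was at 173, 291, 191, 333 and 161 CPM in thick fat and at 229 and 211 CPM in thin fat. Thick fat held both the highest and the lowest libraries of every breed, and the thick and thin values overlapped in all 3 breeds.

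miR-222 stood at 542, 197, 220.7 and 174 CPM in Pietrain thick fat and at 298, 216 and 219 CPM in thin fat. In Large White it was at 359, 146, 352 and 182 CPM in thick fat and at 261, 223, 187 and 287 CPM in thin fat. In Hampshire it was at 317, 348, 446, 227 and 55.5 CPM in thick fat and at 251 and 134 CPM in thin fat. Its highest value came from the library that was also highest for miR-221-3p, Pietrain thick replicate 1, and its lowest from the library lowest for miR-221-3p, Hampshire thick replicate 5. Again the fat classes overlapped in every breed.

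**Figure D1:**
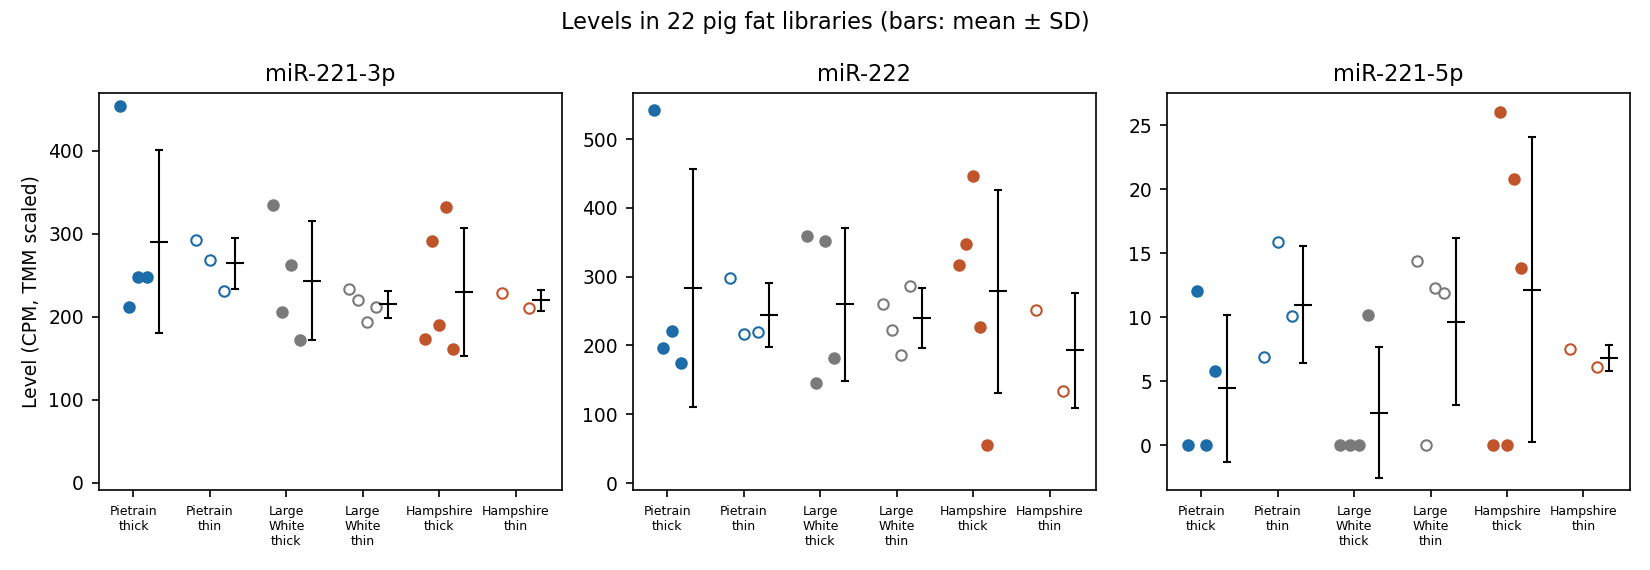
Level in CPM (TMM scaled) of miR-221-3p, miR-222 and miR-221-5p in each library, by breed and fat class (filled points: thick fat; open points: thin fat; bars: mean ± SD). The thick and thin points overlap in every breed, and Pietrain thick replicate 1 is the highest library for both miR-221-3p (454 CPM) and miR-222 (542 CPM).

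Group means followed no common order in the pair. miR-221-3p was highest in Pietrain thick fat, at 290.7 CPM ± 110 (SD, n = 4), followed by Pietrain thin fat at 264.6 ± 30.7 (SD, n = 3), Large White thick fat at 243.8 ± 71.4 (SD, n = 4), Hampshire thick fat at 229.8 ± 77.1 (SD, n = 5), Hampshire thin fat at 219.9 ± 12.7 (SD, n = 2) and Large White thin fat at 215.0 ± 16.3 (SD, n = 4). miR-222 was also highest in Pietrain thick fat, at 283.4 CPM ± 173 (SD, n = 4), but Hampshire thick fat came next at 278.8 ± 147 (SD, n = 5), then Large White thick fat at 259.8 ± 112 (SD, n = 4), Pietrain thin fat at 244.5 ± 46.3 (SD, n = 3), Large White thin fat at 239.5 ± 43.8 (SD, n = 4) and Hampshire thin fat at 192.7 ± 83.0 (SD, n = 2). No neighbours in either order differed by more than the larger of their SDs. In every breed the thick libraries varied more than the thin ones in both miRNAs.

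Whether the level of the pair differed between thick and thin fat was asked first within each breed. Neither miRNA passed the test in any breed, and no difference exceeded the spread between libraries. All 3 names passed the filter on low counts in all comparisons. edgeR's quasi-likelihood test called 0% of the names in each breed (0 of 161 for Pietrain, 0 of 170 for Large White, 0 of 172 for Hampshire), with 4, 2 and 5 names at an unadjusted p under 0.05. DESeq2 called 1, 0 and 3 names, none of them in the pair.

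In Pietrain fat the log2 difference of thick minus thin was 0.14 (SE 0.28, 95% interval -0.52 to 0.80, edgeR adjusted p = 0.993) for miR-221-3p. It was 0.20 (SE 0.42, interval -0.79 to 1.20, edgeR adjusted p = 0.993) for miR-222. Both signs rested on 1 library: without Pietrain thick replicate 1 the differences were -0.15 and -0.30. That library alone stood above every thin library in both miRNAs.

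In Large White the differences were 0.18 (SE 0.21, interval -0.31 to 0.66, edgeR adjusted p = 0.958) for miR-221-3p and 0.10 (SE 0.30, interval -0.58 to 0.79) for miR-222. With thick and thin replicate 1 exchanged they were -0.094 and -0.13. In Hampshire miR-221-3p differed by 0.10 (SE 0.39, interval -0.82 to 1.02, edgeR adjusted p = 0.961). miR-222 differed there by 0.61 (SE 0.75, interval -1.14 to 2.36, edgeR adjusted p = 0.961), the widest interval of the pair, from only 2 thin libraries. It was 0.26 without Hampshire thin replicate 2 and 1.07 without Hampshire thin replicate 1. The intervals of miR-222 reached past a 2-fold change in Pietrain and Hampshire and ended short of it in Large White.

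With all breeds in a fit that also held breed, thick minus thin was 0.13 (SE 0.16, interval -0.20 to 0.47) for miR-221-3p and 0.26 (SE 0.29, interval -0.35 to 0.87) for miR-222. With the Large White replicate 1 libraries exchanged these were 0.0092 and 0.15. As labelled, the edgeR adjusted p was 0.997 for both, and 0% of the 206 names were called (5 at an unadjusted p under 0.05, and 2 called by DESeq2). Of the 13 thick libraries, 5 lay above the thin mean of their breed for miR-221-3p and 7 for miR-222. The interaction of fat class and breed also gave an edgeR adjusted p of 1.0 for both, with 0% of names called (11 at an unadjusted p under 0.05, and 2 called by DESeq2). In whole tissue such as this, fewer cells of a type and less RNA per cell cannot be told apart.

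The authors' deposited table of fat comparisons, made per sequence, listed 38 sequences of the 3 names for Pietrain, 30 for Large White and 27 for Hampshire. None had an unadjusted p under 0.05 in the authors' deposited table, where 4.84%, 1.34% and 2.25% of all sequences with a p had one. An adjusted p was given for 23 of the 38, all 30 and all 27, and none was under 0.05, against 1.89% of all sequences in the authors' deposited table for Pietrain, 0% for Large White and 0.0187% for Hampshire. The lowest adjusted p there was 0.706 for Pietrain, 1.0 for Large White and 0.973 for Hampshire.

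The breed comparisons gave both fat classes equal weight. Neither miRNA differed between any breeds beyond the spread of the libraries. Pietrain minus Large White was 0.28 on the log2 scale (SE 0.20, interval -0.14 to 0.70, edgeR adjusted p = 0.740) for miR-221-3p and 0.079 (SE 0.35, interval -0.67 to 0.82) for miR-222. In that comparison edgeR called 0% of 206 names, with 25 at an unadjusted p under 0.05, and DESeq2 called 7.

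Many names were called between Hampshire libraries and those of the other breeds, but not these 3. edgeR called 36 of 206 names (17.5%) between Hampshire and Large White, and none of the 3 names was among them. miR-221-3p differed by -0.026 (SE 0.21, interval -0.47 to 0.42, edgeR adjusted p = 0.988) and miR-222 by -0.10 (SE 0.37, interval -0.89 to 0.68, edgeR adjusted p = 0.927). Against Pietrain, edgeR called 39 names (18.9%), again with none of the 3. miR-221-3p differed there by -0.30 (SE 0.22, interval -0.76 to 0.16, edgeR adjusted p = 0.364) and miR-222 by -0.18 (SE 0.39, interval -0.998 to 0.63, edgeR adjusted p = 0.805). The comparisons share libraries, so their values are not independent of each other. In thick fat alone edgeR called fewer names, 11 against Large White and 14 against Pietrain. The called names include miR-214-3p (named after its value was seen), which was at 0 in all 7 Hampshire libraries. Breed and the making of the tables cannot be told apart there.

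Markers of liver reached their highest levels in Hampshire libraries. edgeR called 1 of the 2 tested, miR-192, between Hampshire and Large White (named after its value was seen), and neither between Hampshire and Pietrain, where 17.5% and 18.9% of all names were called. The summed level of miR-122, miR-192 and miR-885-3p ranged from 20.1 to 21243 CPM in Hampshire thick fat and from 826 to 26728 CPM in Hampshire thin fat, against 0 to 3675 CPM in Large White and 0 to 7802 CPM in Pietrain. Without the 2 libraries highest in miR-122, Hampshire thin replicate 1 and thick replicate 3, Hampshire minus Large White was -0.068 for miR-221-3p and -0.51 for miR-222. Hampshire minus Pietrain was then -0.41 and -0.67. None of these passed the edgeR test, whose adjusted p ran from 0.363 to 0.938.

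**Figure D2:**
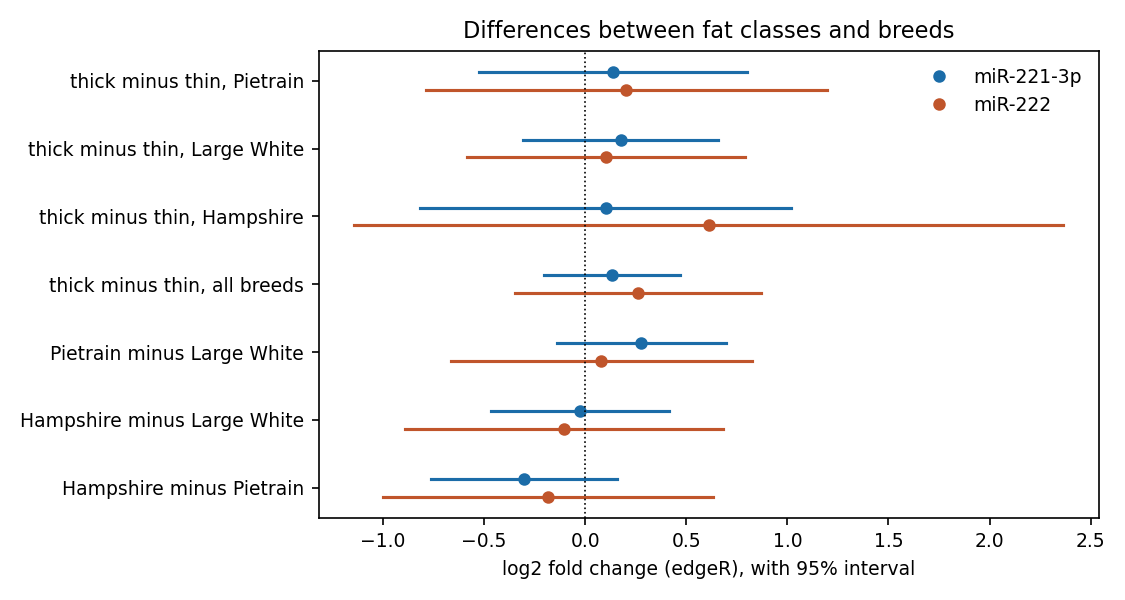
Log2 fold change of miR-221-3p and miR-222 in each comparison of fat classes and breeds, from edgeR; points are the fitted differences and lines their 95% intervals. Every interval holds 0, and the widest is that of miR-222 between Hampshire thick and thin fat (-1.14 to 2.36).

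The balance within the pair was then examined, since a ratio of the 2 miRNAs is free of library scaling. Of the 22 libraries, 10 held more miR-221-3p reads and 12 more miR-222. The share of miR-221-3p in the summed reads of the pair had an exact (Clopper-Pearson) 95% binomial interval above 50% in 6 libraries, below 50% in 5 and across 50% in 11. These intervals cover counting error only, since reads copied by PCR without molecular identifiers are not independent molecules.

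In Pietrain the share was 45.6%, 51.9%, 52.9% and 58.8% in thick fat and 49.6%, 55.4% and 51.4% in thin fat. In Large White it was 48.3%, 58.5%, 42.7% and 48.6% in thick fat and 47.2%, 49.6%, 51.0% and 42.5% in thin fat. In Hampshire it was 35.3%, 45.6%, 30.0%, 59.4% and 74.4% in thick fat and 47.6% and 61.1% in thin fat. Both extremes were Hampshire thick libraries: replicate 3 held 502 reads of miR-221-3p and 1174 of miR-222 (interval 27.8% to 32.2%), and replicate 5 held 128 and 44 (interval 67.2% to 80.8%).

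On the log2 scale the ratio of miR-221-3p to miR-222 was 0.13 ± 0.24 (SD, n = 7) for Pietrain libraries, -0.083 ± 0.29 (SD, n = 8) for Large White ones and 0.036 ± 0.95 (SD, n = 7) for Hampshire ones. The spread in Hampshire was thus over 3 times that of the other breeds, a description that was not tested. The ratio was lower where more reads of the other names were 25 nt long, though not past the adjusted threshold. That is the commonest length of miR-222 and the longest in the tables. The 25 nt share was small, from 0.037% in Hampshire thick replicate 5 to 0.14% in Large White thick replicate 3. Pearson's r of the ratio with that share was -0.47 (permutation p = 0.0260, adjusted p = 0.0867 over Pearson's r and Spearman's rho of 5 relations). Spearman's rho was -0.45 (permutation p = 0.0372, adjusted p = 0.0930), so neither passed after adjustment. Without Pietrain thin replicate 1 and Large White thick replicate 3, the farthest in that share, r was -0.48, and within breeds it was -0.35 for Pietrain, -0.51 for Large White and -0.79 for Hampshire libraries. With the log2 level of miR-222 the same share had a Pearson's r of 0.35 (permutation adjusted p = 0.225). With that of miR-221-3p it was -0.075 (permutation adjusted p = 0.826). The part of read length in the spread of the ratio was not tested. An exact two-sided permutation test of libraries within fat classes found no difference in mean ratio between Pietrain and Large White (0.21, p = 0.155, adjusted p = 0.344 over 20 tests of ratio, length and share). Nor did the same exact permutation test find one between Hampshire and Large White (0.19, adjusted p = 0.735), Hampshire and Pietrain (-0.026, adjusted p = 0.940) or thick and thin fat (-0.063, adjusted p = 0.928).

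**Figure D3:**
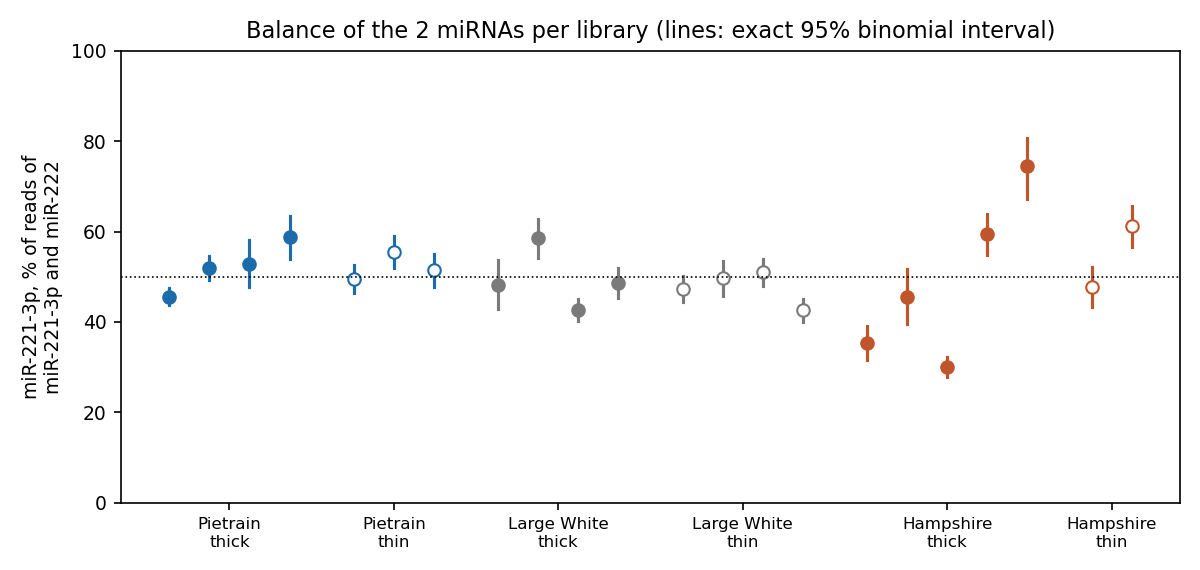
Share of miR-221-3p in the reads of miR-221-3p and miR-222 together, in percent, for each library (filled: thick fat; open: thin fat; vertical lines: exact 95% binomial interval, counting error only). Pietrain and Large White libraries lie between 42.5% and 58.8%, and Hampshire libraries between 30.0% and 74.4%.

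Across the 22 libraries the log2 levels of the 2 miRNAs had a Pearson's r of 0.57 (permutation p = 0.00684, adjusted p = 0.0684). Spearman's rho was 0.50 (permutation p = 0.0187, adjusted p = 0.0867), with adjustment over both coefficients of 5 relations. Neither passed after adjustment. Without the libraries farthest from the median of miR-221-3p, Pietrain thick replicate 1 and Large White thick replicate 1, r was 0.40. Within breeds r was 0.94 in Pietrain (7 libraries), 0.80 in Large White (8) and 0.36 in Hampshire (7). The levels share each library's scaling, which can by itself move them together.

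The miRNAs most like each of the pair were ranked by Pearson's r of log2 CPM over the 22 libraries, among 107 other names with reads in every library. For miR-221-3p the first was miR-222 (0.57), followed by miR-129a-5p (0.56), miR-28-3p (0.55), miR-100 (0.45) and miR-143-5p (0.43). For miR-222 they were miR-125a (0.65), miR-92a (0.61), miR-92b-3p (0.58), miR-221-3p (0.57) and miR-204 (0.57). At the other end stood miR-148a-5p for miR-221-3p (-0.49) and miR-126-3p for miR-222 (-0.74), both chosen after their values were seen. miR-126-3p and miR-92a are both on the list of endothelial markers, so members of that list went both ways with miR-222. The correlations are over libraries that share depth and scaling and are given as a description.

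miR-221-5p, the other strand of the miR-221 hairpin, was scarce. It averaged 7.90 CPM and ranked 166th of 250 names, and its 288 reads were 3.06% of the reads of both arms. Reads were listed in 14 of the 22 libraries: 6 of 13 thick and 8 of 9 thin, or 5 of 7 Pietrain, 4 of 8 Large White and 5 of 7 Hampshire libraries. With the Large White replicate 1 libraries exchanged, 7 of 13 thick and 7 of 9 thin libraries had reads. Where listed, the 5p arm made up 2.27% to 8.21% of miR-221 reads, with a median of 5.47%.

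By library miR-221-5p was at 0, 12.0, 0 and 5.78 CPM in Pietrain thick fat and at 6.93, 15.9 and 10.1 CPM in thin fat. In Large White it was at 0, 0, 0 and 10.22 CPM in thick fat and at 14.4, 0, 12.3 and 11.9 CPM in thin fat. In Hampshire it was at 0, 26.04, 0, 20.8 and 13.9 CPM in thick fat and at 7.53 and 6.09 CPM in thin fat. The zeros may not all have the same meaning, if a 0 hid at most 5 reads of each of its 4 sequences. That limit comes from the smallest listed count and was not tested. With 20 hidden reads the 5p share would reach 1.66% in Pietrain thick replicate 1, below the 2.27% seen as the lowest elsewhere. In the other libraries at 0 it could have reached 2.92% to 10.6%, which overlaps the range where reads were listed.

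The 4 sequences of miR-221-5p were nested forms with one start and different ends, and they are shown because the libraries that listed the shortest listed none of the longer ones.
miR-221-5p, 21 nt: aCCUGGCAuacaauguagauu
miR-221-5p, 22 nt: aCCUGGCAuacaauguagauuu
miR-221-5p, 23 nt: aCCUGGCAuacaauguagauuuc
miR-221-5p, 24 nt: aCCUGGCAuacaauguagauuucu
The 21 nt form was listed alone in 8 libraries (4 Pietrain, 4 Hampshire), at 6 to 25 reads, and in none of the 8 Large White libraries. The longer forms were listed in 6 libraries (1 Pietrain, 4 Large White, 1 Hampshire), and no library listed both. The counts deposited for Large White did not list the 21 nt form at all, and those for Hampshire not the 23 and 24 nt forms. An effect of breed and one of how the tables were made cannot be told apart for these forms. In the 4 Large White libraries with reads, thick replicate 4 and thin replicates 1, 3 and 4, all 3 longer forms had reads, 27 to 36 in all. If only low counts were left out, up to 5 reads of each form could be hidden. The absence of a form from a library then holds only above that limit. This pattern was noticed in the values and was not tested.

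No difference in miR-221-5p passed the test, and the intervals were wide. Thick minus thin over all breeds was -1.03 on the log2 scale (SE 1.19, interval -3.51 to 1.44, edgeR adjusted p = 0.997). Within breeds it was -1.19 in Pietrain (interval -4.45 to 2.08), -1.71 in Large White (interval -5.24 to 1.81) and 0.80 in Hampshire (interval -4.07 to 5.67). With thick and thin replicate 1 exchanged, the Large White difference of miR-221-5p was -0.027 and that over all breeds -0.26. With only its most abundant sequence, Hampshire minus Large White passed edgeR's test (adjusted p = 0.0221). That sequence was at 0 in all 8 Large White libraries and had reads in 4 of 7 Hampshire ones. The counts deposited for Large White did not list it at all, so breed and the making of the tables cannot be told apart here. These fitted values rest on libraries at 0 and are no measure of a fold.

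The reads of each miRNA began at one place and ended at several. All 16 sequences of miR-221-3p and 18 of the 19 of miR-222 started with A and shared their first 19 bases within the name. The remaining miR-222 sequence, gGCUACAUcuggcuacugggucucu, had G as its first base and 6 reads in a single library. All other sequences differed only at the 3′ end, where 6 sequences of miR-221-3p and 5 of miR-222 were shorter or longer forms of one another. Over all libraries these nested forms held most reads, and the rest carried a different last base or bases, such as aGCUACAUugucugcuggguuuu (664 reads) or aGCUACAUcuggcuacugggucuca (488 reads).

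The most abundant sequence was 23 nt long for miR-221-3p, with 35.02% of its 9123 reads, followed by forms of 22 nt (28.0%) and 24 nt (13.6%). For miR-222 it was 25 nt long, with 36.9% of the 10187 reads, followed by forms of 24 nt (21.8%) and 23 nt (11.5%). The tables held sequences of 17 to 25 nt, so the commonest form of miR-222 sits at the upper limit, and longer forms are not analysed here. For miR-221-3p a single sequence of 7 reads reached 25 nt.

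By length, 22, 23 and 24 nt made up 31.4% ± 4.20, 45.2% ± 1.83 and 19.4% ± 2.77 of miR-221-3p reads in Large White (SD, n = 8). In Hampshire the same lengths made up 40.1% ± 7.69, 39.2% ± 6.02 and 11.9% ± 4.31 (SD, n = 7), and in Pietrain 36.8% ± 7.34, 41.5% ± 5.03 and 16.0% ± 3.73 (SD, n = 7). miR-222 reads of 25 nt made up 49.2% ± 4.04 in Large White (SD, n = 8), 47.6% ± 6.30 in Pietrain (SD, n = 7) and 42.7% ± 8.17 in Hampshire (SD, n = 7). Reads of miR-222 of 21 nt made up 5.08% ± 2.27 in Large White, 6.01% ± 2.91 in Pietrain but 11.4% ± 5.06 in Hampshire.

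**Figure D4:**
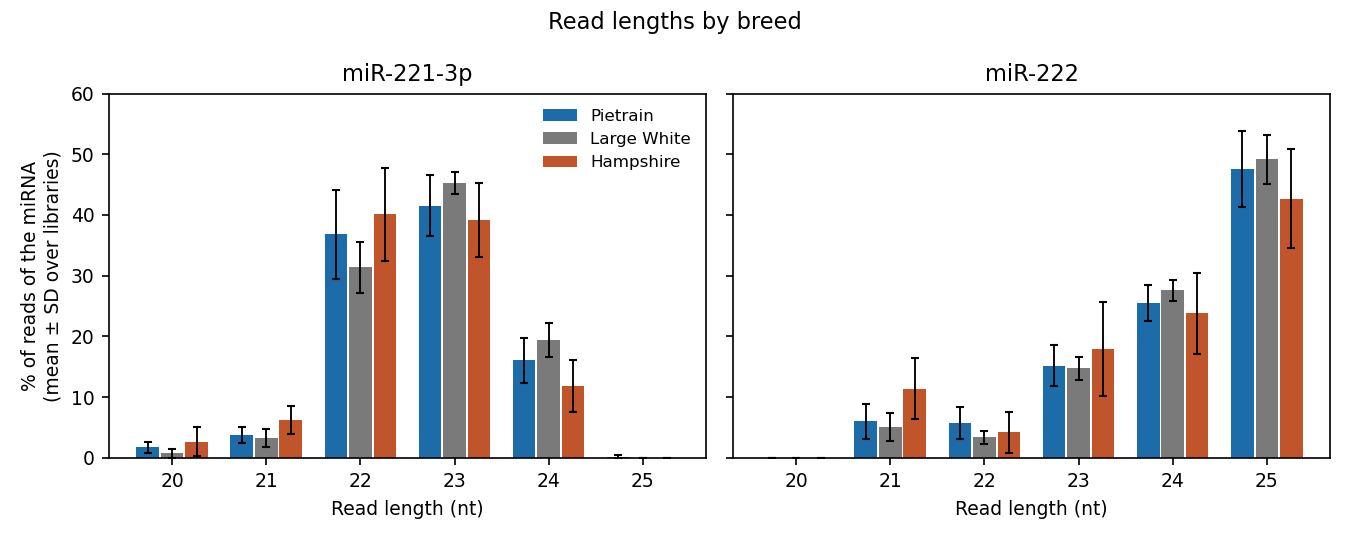
Share of the reads of miR-221-3p and of miR-222 at each read length, in percent, by breed (bars: mean over libraries; error bars: SD). miR-221-3p reads centre on 22 to 24 nt and miR-222 reads on 23 to 25 nt, and the 24 nt share of miR-221-3p runs from 11.9% in Hampshire to 19.4% in Large White.

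With the reported settings, the 1 difference between groups in the 3 names that passed a test was in length. Reads of miR-221-3p were shorter in Hampshire than in Large White fat. The mean read length of miR-221-3p was 22.74, 22.75, 22.82 and 22.77 nt in Large White thick fat and 22.77, 22.83, 22.85 and 22.82 nt in thin fat. In Hampshire it was 22.68, 22.43, 22.72, 22.35 and 22.36 nt in thick fat and 22.63 and 22.43 nt in thin fat. The longest Hampshire mean lay below the shortest Large White mean, so these breeds did not overlap. Hampshire minus Large White was -0.27 nt, with means of 22.51 ± 0.159 nt (SD, n = 7) and 22.79 ± 0.0395 nt (SD, n = 8). An exact two-sided permutation test gave p = 0.000529, the smallest that its 1890 arrangements allow, and an adjusted p of 0.0106 over 20 tests.

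Pietrain libraries, at 22.78, 22.84, 22.73 and 22.66 nt in thick fat and at 22.68, 22.49 and 22.49 nt in thin fat, overlapped both breeds. Their mean of 22.67 ± 0.137 nt (SD, n = 7) lay between the other means. By the exact permutation test, neither Pietrain minus Large White (-0.14 nt, p = 0.0155, adjusted p = 0.146) nor Hampshire minus Pietrain (-0.13 nt, p = 0.0960, adjusted p = 0.274) passed after adjustment. Without Pietrain thick replicate 2, Pietrain minus Large White was -0.15 nt with an exact permutation adjusted p of 0.0490. Thick and thin fat differed by 0.044 nt (exact permutation adjusted p = 0.666).

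The difference of miR-221-3p between Hampshire and Large White was smaller under 2 other ways of measuring it, both chosen after seeing the data. Reads of all other names were shorter in Hampshire too, at a mean of 21.79 ± 0.0583 nt (SD, n = 7) against 21.87 ± 0.0377 nt in Large White (SD, n = 8) and 21.87 ± 0.0401 nt in Pietrain (SD, n = 7). With the length of other names subtracted, the difference was -0.18 nt (exact permutation adjusted p = 0.127). With only the 4 sequences that had reads in every library, which held 81.4% of miR-221-3p reads, it was also -0.18 nt (exact permutation adjusted p = 0.106). It therefore passed the test on all listed reads and missed it on either of these.

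For miR-222 the mean read length was 24.10, 24.03, 24.21 and 24.04 nt in Large White thick fat and 24.27, 23.94, 24.10 and 24.31 nt in thin fat. In Hampshire it was 24.22, 23.65, 24.26, 23.54 and 23.50 nt in thick fat and 23.88 and 23.69 nt in thin fat. Hampshire thick replicates 1 and 3 lay within the Large White range and the other Hampshire libraries below it. Hampshire minus Large White was -0.31 nt, a larger gap than for miR-221-3p but with more spread, and it did not pass (exact permutation p = 0.0270, adjusted p = 0.146). The Pietrain mean was 24.03 ± 0.210 nt (SD, n = 7), and Pietrain minus Large White, with fat classes weighted equally, was -0.11 nt (exact permutation adjusted p = 0.488).

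**Figure D5:**
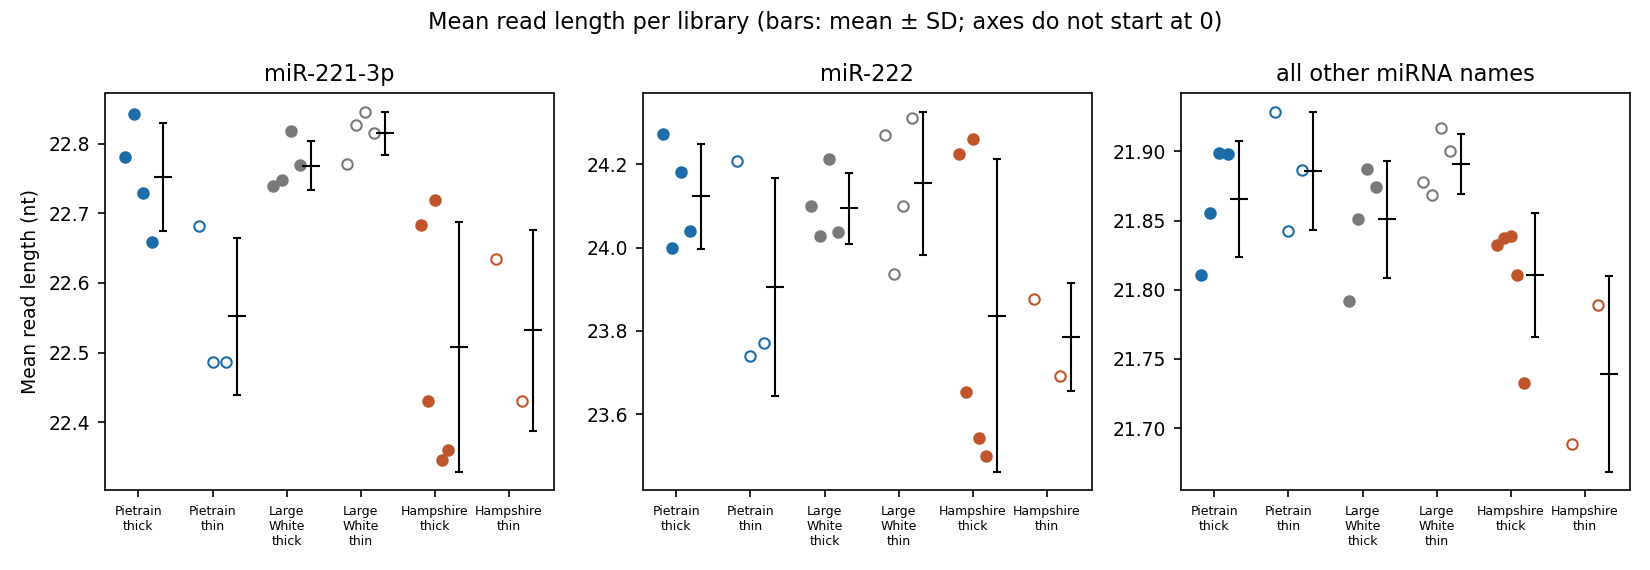
Mean read length in nt of miR-221-3p, miR-222 and all other miRNA names in each library (filled: thick fat; open: thin fat; bars: mean ± SD; the axes do not start at 0). Hampshire libraries all lie below Large White libraries for miR-221-3p (at most 22.72 nt against at least 22.74 nt), and the breeds overlap for miR-222.

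The share of the most abundant sequence gave no difference that passed. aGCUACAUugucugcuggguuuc made up 37.1% ± 2.56 of miR-221-3p reads in Large White (SD, n = 8), 32.8% ± 5.36 in Pietrain (SD, n = 7) and 31.5% ± 5.80 in Hampshire (SD, n = 7). aGCUACAUcuggcuacugggucucu made up 37.0% ± 2.09 of miR-222 reads in Large White (SD, n = 8), 35.5% ± 4.98 in Pietrain (SD, n = 7) and 32.0% ± 6.01 in Hampshire (SD, n = 7). The exact permutation adjusted p-values over these 8 comparisons ran from 0.146 to 0.940.

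Other miRNAs with known parts in the same processes were counted from lists. Among miRNAs reported to promote adipogenesis, 13 of 16 were in the tables and none passed edgeR's test between thick and thin fat over all breeds, with a median log2 difference of 0.12 against 0.017 over all names. Between Hampshire and Large White 2 were higher and 2 lower (17.5% of all names were called in that comparison), and 9 did not pass, with a median of 0.17 against -0.021 over all names. The 3 most abundant of that list were miR-148a-3p, miR-143-3p and miR-26a, and of these miR-148a-3p was higher in Hampshire by 0.85 (SE 0.15, edgeR adjusted p = 0.00068). The others that passed were miR-375 (higher) and miR-103 and miR-17-5p (lower), named after their values were seen.

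Among miRNAs reported to repress adipogenesis, the side on which miR-221 and miR-222 are usually placed, 8 of 15 were in the tables and none passed edgeR's test between fat classes (median -0.020). Between Hampshire and Large White, where 17.5% of all names were called, 1 of the 8 was higher and 1 lower (median 0.081 against -0.021 over all names). miR-27a, which targets the adipocyte regulator PPARG, was higher by 1.01 (SE 0.15, edgeR adjusted p = 0.000155), miR-27b-3p stood at 0.30 (SE 0.17, edgeR adjusted p = 0.248), and miR-145-5p was lower, with libraries at 0 that leave its fold undefined.

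Of 10 other miRNAs reported to target CDKN1B or KIT, 7 were in the tables and none passed edgeR's test between fat classes (median -0.087). Between Hampshire and Large White, where 17.5% of all names were called, 2 were higher and 1 lower (median -0.17 against -0.021 over all names). miR-24-3p was higher by 0.46 (SE 0.11, edgeR adjusted p = 0.0075), miR-148a-3p by 0.85 as above, and miR-152 differed by -0.55 (SE 0.18, edgeR adjusted p = 0.0360). The 7 endothelial markers, of which miR-126-3p at 43462 CPM ± 11170 (SD, n = 22) was the highest, had no member that passed in any of these comparisons. Their summed level ranged from 42804 to 91615 CPM in Hampshire thick fat, 44917 to 69067 CPM in Large White thick fat and 45910 to 52215 CPM in Pietrain thick fat. In thin fat it ranged from 47759 to 54490 CPM in Hampshire, 44079 to 50162 CPM in Large White and 37836 to 56403 CPM in Pietrain.

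Of 12 markers of smooth muscle and stroma, 8 were in the tables, and none passed edgeR's test between fat classes or between Pietrain and Large White. In Hampshire 3 of the 8 were lower than in Large White and the same 3 lower than in Pietrain, where 17.5% and 18.9% of all names were called. These were miR-145-5p, miR-145-3p and miR-214-3p, named after their values were seen. miR-214-3p was listed at 0 in all 7 Hampshire libraries, against 739 to 1513 CPM in Large White and 767 to 1534 CPM in Pietrain. miR-145-5p had reads in 3 of 7 Hampshire libraries, at up to 3132 CPM, against 3523 to 10796 CPM in Large White and 3488 to 8117 CPM in Pietrain. miR-145-3p had reads in the same 3 Hampshire libraries and in every library of the other breeds. No sequence of the Hampshire table was filed under miR-214-3p, and no Hampshire library held a low level of miR-145-5p (2524 to 3132 CPM or 0), so an effect of breed and one of how the tables were made cannot be told apart for these 3 names. The median of the 8 was nevertheless above 0, at 0.31 against Large White and 0.26 against Pietrain, and miR-143-3p, the most abundant, differed from Large White by 0.50 (SE 0.31, edgeR adjusted p = 0.292). The summed level of the list ranged from 69029 to 193818 CPM in Hampshire thick fat and 189718 to 262037 CPM in thin fat, from 67931 to 260677 CPM in Large White and from 79778 to 193649 CPM in Pietrain. Its part in the levels of miR-221-3p and miR-222 was not tested.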

How the data were processed

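Small RNA of 22 pig fat libraries was prepared with a NEBNext kit from RNA of integrity above 7.5 and read for 36 cycles on a HiScan SQ, per the labels' protocols. Sscrofa10.2, bcl2fastq, FastQC and DESeq2 are named in the submitters' processing notes. The trimmer, aligner and miRNA annotation are not given in the sources used here. The authors deposited raw read counts per sequence in 1 table per breed, with no normalization. Per the file headers, the authors' deposited DESeq2 tables give each sequence a mean signal, a log2 fold change, its standard error, a Wald score, and p-values before and after adjustment. Their log2 fold change is thin minus thick, as found from the values.

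Counts were summed per miRNA name after removal of the prefixes ssc- and hsa- and of NA marks. Unnamed sequences, 0.0480% of reads, were left out. Names were filtered with filterByExpr over the groups of breed and fat class in each fit, which were 6 with all 22 libraries. They were scaled by TMM and tested with edgeR 4.0.16 (robust quasi-likelihood, R 4.3.3, limma 3.58.1). Benjamini-Hochberg adjustment was over all names tested, at a threshold of 0.05. A standard error was the size of the log2 difference over the root of F, and intervals are at 95%. Ratios, lengths and shares were tested by exact permutation. Scripts were tested on simulated data. Of 32 pairs of libraries within groups, chi-square per degree of freedom was at least 138, far above sampling noise. Likeness was Pearson's r of log2 CPM among names past the filter with reads in every library, with 5 names printed for each miRNA. From each list, counts, the median and up to 3 of the most abundant members are named, with others named after their values were seen. The members and lists were chosen with earlier results of these data known. Correlations were tested with 100000 permutations. Alternatives were other scalings and filters, DESeq2 1.42.0, limma-voom, other choices of sequences, an exchange of Large White labels, single fat classes and leaving out each library.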

Additional observations from a re-analysis of the deposited data

Results flagged for a closer look

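Of 32 combinations of group and measure, 4 held a library far from the others of its group. Chance alone flags about 1 in 20 among independent values without ties. The 4 cannot be set against that rate, because the measures share libraries and several values were at 0. A group with reads in a single library is flagged whatever its level. In Pietrain thick fat, replicate 1 stood apart in both miRNAs: miR-221-3p was at 454.2 CPM, with a gap of 0.851 of the group's range, and miR-222 at 542.1 CPM, with a gap of 0.874. The same library decides the sign of the Pietrain fat difference in both. In Large White, miR-221-5p was at 10.2156 CPM in thick replicate 4, the only thick library with reads, and at 0 CPM in thin replicate 2, the only thin library without. With thick and thin replicate 1 exchanged, 2 libraries of each Large White class had reads and neither class held a library far from the others.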

How the results depend on the processing

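No setting brought miR-221-3p or miR-222 past the threshold in any comparison of level; the lowest adjusted p was 0.0889, for miR-221-3p in Hampshire minus Pietrain. Several of the small differences changed sign, and the cause was not tested. For miR-221-3p, Hampshire minus Large White was 0.0067 with DESeq2 size factors, 0.0060 with DESeq2 and 0.0025 with limma-voom, and thick minus thin in Hampshire was -0.10 with upper quartile scaling and -0.26 with the most abundant sequence alone. For miR-222, Pietrain minus Large White was -0.019 with library totals, thick minus thin in Large White was -0.0071 with limma-voom, and in thick fat alone Hampshire minus Large White was 0.15 and Hampshire minus Pietrain 0.052. The exchange of Large White replicate 1 labels gave -0.094 for miR-221-3p and -0.13 for miR-222 in thick minus thin.

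With each library left out in turn, thick minus thin ranged from -0.15 to 0.26 (miR-221-3p) and -0.30 to 0.37 (miR-222) in Pietrain, 0.0012 to 0.32 (miR-221-3p) and -0.078 to 0.29 (miR-222) in Large White, and -0.048 to 0.22 (miR-221-3p) and 0.26 to 1.07 (miR-222) in Hampshire. The lowest came without thick replicate 1 in Pietrain and Large White, and in Hampshire without thick replicate 4 (miR-221-3p) or thin replicate 2 (miR-222). Pietrain minus Large White ranged from -0.18 to 0.18 for miR-222, Hampshire minus Large White from -0.16 to 0.069 for miR-221-3p and -0.37 to 0.063 for miR-222, and Hampshire minus Pietrain from -0.47 to 0.078 for miR-222. The log2 ratio ranged from -0.013 to 0.38 (Hampshire minus Large White), -0.22 to 0.17 (Hampshire minus Pietrain) and -0.20 to 0.069 (thick minus thin). The share of the commonest miR-221-3p sequence ranged from -2.08 to 2.72 percentage points (Hampshire minus Pietrain) and -0.69 to 2.51 (thick minus thin). Hampshire minus Pietrain was also 0.039 (nested sequences) and 0.14 (most abundant sequence) for the ratio and -1.001 (nested sequences) for the share.

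miR-221-5p was least stable: thick minus thin in Hampshire was -1.35 and Hampshire minus Pietrain -0.35 with limma-voom, and in thin fat alone Hampshire minus Large White was -0.58 and Hampshire minus Pietrain -0.80. With libraries left out, Pietrain minus Large White ranged from -0.18 to 3.07 and Hampshire minus Pietrain from -0.040 to 0.97. With its most abundant sequence alone, Hampshire minus Large White was 6.31 (edgeR adjusted p = 0.0221), but the Large White counts did not list that sequence at all.

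For the length of miR-221-3p, Hampshire minus Large White ranged from -0.32 to -0.22 nt and passed with each of the 15 libraries left out. It missed the threshold with sequences present in every library (-0.18 nt) and after subtraction of other names' length (-0.18 nt), both added after seeing the data. Pietrain minus Large White ranged from -0.17 to -0.12 nt and passed only without Pietrain thick replicate 2.

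Counts of called names moved more. Hampshire minus Large White gave 36 names in the reported fit, 57 with DESeq2, 11 in thick fat, 16 in thin fat and 22 without Hampshire thin replicate 2. Hampshire minus Pietrain gave 39, at most 54 under the other settings, then 14 in thick fat, 17 in thin fat and 22 without Hampshire thin replicate 2. Fat comparisons gave 0 to 3. Setting zeros to 5 reads gave no separate value for the ratio, because both miRNAs had reads in every library. No paired analysis was possible because the labels do not link libraries across groups. Depth limits single libraries, most of all Hampshire thick replicate 5, with 44 reads of miR-222.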
